A study of Mus musculus with 18 samples.

Results

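Malat1, Neat1, Meg3, Kcnq1ot1 and Snhg11 are 5 long non-coding RNAs, taken by name from the 26344 genes that are common to the 12 UMI tables (tables of unique molecular identifiers, each standing for 1 captured RNA molecule) and are not mitochondrially encoded. All 5 are annotated as lncRNA in RefSeq. Long non-coding RNAs are transcripts without a long reading frame, and many of them stay in the nucleus, so that a preparation of nuclei and a preparation of whole cells sample them differently. Malat1 is an abundant RNA of nuclear speckles, the bodies in which splicing factors gather, and Neat1 is the scaffold of paraspeckles. Meg3 is the maternally expressed RNA of the imprinted Dlk1-Dio3 region, Kcnq1ot1 is the paternally expressed antisense RNA that silences its neighbours in the Kcnq1 region, and Snhg11 is a spliced host gene of small nucleolar RNAs. The bladder wall holds an epithelium, the urothelium, over a fibroblast-rich layer and the smooth muscle of the detrusor.

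The 5 RNAs were followed through 18 samples of C57BL/6 mouse bladder in 11 groups, with no transgene and no treatment named for any of them. Single cells of the whole bladder gave 5 libraries. A 22-month and a 3-month library each named 3 males. A pair of 12-month libraries and a 24-month library named 2 females with 2 males. Nuclei gave 1 library, at 12 months, also from 2 females with 2 males. Cells of the detrusor alone came from 3 females of 14 months, and a detrusor-enriched cell preparation, of the same age, from 2 females with 2 males. Frozen sections on barcoded spots came from males, with 2 sections of 22 months and 2 of 14 months, each labelled with 4 males. Bulk RNA of 12-month animals came as 3 intact and 3 dissociated libraries, with 3 females named per library. Every sample names several mice, so an animal is not the unit of replication. The labels do not say whether libraries of 1 group came from separate mice, so p-values measure the spread between these libraries, which may be technical.

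After filtering, the whole-bladder libraries held 948 to 8420 cells, the nuclei library 3375 nuclei, and the detrusor-only and detrusor-enriched libraries 5379 and 5158 cells. Median UMIs were 1085 per nucleus, 2396 and 1762 per cell in the 22-month and 3-month male libraries, and 9629 to 14691 in the 3 libraries of mixed sex. The 2 male libraries stood apart from the mixed ones: they shared another gene list, held no mitochondrial counts, and had 8.24% and 7.06% of their UMIs in ribosomal protein genes against 31.9% to 32.9%. The sex of the mice and these technical differences cannot be told apart. At most 64 barcodes were shared between any pair of libraries. No whole-bladder cell library had 50 or more smooth-muscle-like cells, while 1382 of the nuclei were smooth-muscle-like.

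RefSeq places Malat1 at chr19:5795690-5802672 and Neat1 at chr19:5824708-5845480 on GRCm38.p6, with 22035 bases between them. Meg3 lies at chr12:109540996-109571729 and Snhg11 at chr2:158375713-158386474. Kcnq1ot1 lies at chr7:143213111-143296547, inside the span of Kcnq1 at chr7:143106877-143427050. Whether the counting used strand is not given in the sources used here, so reads of Kcnq1ot1 and of unspliced Kcnq1 RNA may share 1 count. The promoters of the 2 RNAs whose levels turned on cell type, Meg3 and Snhg11, are printed from RefSeq (GRCm38.p6, 250 bases before to 50 after the annotated start, plus strand in both). Capitals mark matches to 6 motifs searched on both strands: the cyclic AMP response element TGACGTCA, its shorter core TGACG, the AP-1 site TGANTCA, the CCAAT box, the TATA box TATAAA and the GC box GGGCGG. The core is contained in the full element.
Meg3, chr12:109540746-109541045: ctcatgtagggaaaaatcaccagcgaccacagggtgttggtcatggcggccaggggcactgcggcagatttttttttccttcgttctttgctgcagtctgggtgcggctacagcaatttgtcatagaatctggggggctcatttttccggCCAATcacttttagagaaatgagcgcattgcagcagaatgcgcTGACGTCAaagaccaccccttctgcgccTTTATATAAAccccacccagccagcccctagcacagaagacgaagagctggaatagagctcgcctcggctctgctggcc
Snhg11, chr2:158375463-158375762: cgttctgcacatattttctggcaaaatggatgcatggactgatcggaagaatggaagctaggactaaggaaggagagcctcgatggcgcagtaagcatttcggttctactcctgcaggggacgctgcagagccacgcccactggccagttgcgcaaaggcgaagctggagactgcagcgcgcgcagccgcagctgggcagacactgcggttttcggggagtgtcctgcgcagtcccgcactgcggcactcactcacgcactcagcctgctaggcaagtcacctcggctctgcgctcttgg
The Meg3 promoter held the full cyclic AMP response element 57 bases before the start, which 1.79% of 32851 mouse promoters of this length hold. It also held a CCAAT box 100 bases before the start (37.4% of promoters) and TATA box matches on both strands just before it (13.6%). None of the 6 motifs was found in the Snhg11 window. The Malat1 promoter held 3 of the cores (20.8% of promoters hold at least 1) and the Kcnq1ot1 promoter 3 CCAAT boxes and 1 core. A match describes these letters only.

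Across whole libraries, the nuclei library had the highest level of each of the 5 RNAs among the 12 UMI libraries. The share of all genes that were highest there was not computed. Against the 5 whole-bladder libraries alone, 51.9% of genes tested lay above every library in nuclei. Levels are CPM, a gene's counts scaled to a fixed total over the genes that are not mitochondrially encoded. Malat1 took 149732 CPM in nuclei. In whole-bladder cells it took 3913 and 3496 CPM in the 22-month and 3-month male libraries and 19178, 18239 and 17651 CPM in the first 12-month, the second 12-month and the 24-month library. Both male libraries lay below the 3 mixed ones, and all 5 lay below the nuclei. The share of all genes that do not overlap between male and mixed libraries was not computed. The detrusor-only and detrusor-enriched cells had 31538 and 32463 CPM, and the 4 sections 237 to 499 CPM, the lowest of all UMI libraries.

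Kcnq1ot1 stood at 794 CPM in nuclei, 27.0 to 62.6 in whole-bladder cells (mean 47.7 ± 15.5, SD, n = 5), 214 and 231 in the detrusor preparations and 7.14 to 8.15 in sections (n = 4). Neat1 stood at 1495 CPM in nuclei, 286 to 682 in whole-bladder cells (439 ± 154), 1227 and 1251 in the detrusor preparations and 466 to 741 in sections. The Neat1 ranges of sections (640 ± 120 CPM, SD, n = 4) and whole-bladder cells overlapped, whereas for Malat1 and Kcnq1ot1 the sections lay below every cell library. The share of all genes that do not overlap between sections and cells was not computed. Snhg11 was at 399 CPM in nuclei, 6.28 to 82.4 in whole-bladder cells, 58.2 to 111 in sections, 49.2 in detrusor-enriched cells and 5.37 in detrusor-only cells, the preparation without urothelial-like cells. Meg3 was at 582 CPM in nuclei, 48.4 to 470 in whole-bladder cells, 424 and 223 in detrusor-only and detrusor-enriched cells and 121 to 199 in sections.

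In a test of all genes, nuclei against the 5 whole-bladder libraries, Kcnq1ot1 was the only 1 of the 5 RNAs past the threshold. Its log2 difference was 2.93 (SE 0.65, adjusted p = 0.029, edgeR's quasi-likelihood test with Benjamini-Hochberg adjustment), and 20.5% of 15481 genes passed, with 10.1% of all genes higher in nuclei. Without the first 12-month library the adjusted p was 0.062, and without the 24-month library 0.067. The log2 differences of the others were 2.37 for Malat1 (SE 1.34, adjusted p = 0.25), 0.65 for Neat1 (SE 0.75, adjusted p = 0.56), 1.09 for Meg3 (SE 0.99, adjusted p = 0.46) and 1.70 for Snhg11 (SE 1.25, adjusted p = 0.37). Meg3 passed without the 22-month male library, at 1.99 (adjusted p = 0.018). All 5 levels in nuclei lay above the whole range of the cell libraries, as did those of 51.9% of all genes. Whole libraries differ in the cell classes they hold as well as in the preparation, and fewer cells of a class and less RNA per cell cannot be told apart there.

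Within urothelial-like cells, Meg3 and Kcnq1ot1 were higher in nuclei. Meg3 was at 720 CPM in 1240 nuclei (1647 UMIs, 95% Poisson interval 685 to 755, which covers counting error only), and at 433 CPM as a mean over nuclei. In cells it was at 23.5, 3.39, 2.84, 2.33 and 4.77 CPM in the 22-month male, 3-month male, first and second 12-month and 24-month libraries. No cell library came near the nuclei, and the 22-month male library was the highest of the 5. The log2 difference was 5.65 (SE 0.88, adjusted p = 0.0050). Kcnq1ot1 was at 817 CPM in nuclei and at 27.4, 31.0, 54.4, 62.3 and 51.3 CPM in the same libraries, a log2 difference of 2.89 (SE 0.60, adjusted p = 0.011). Of the 13314 genes tested, 35.2% passed in either direction and 16.1% were higher in nuclei, beside 2 of the 5 RNAs.

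Malat1, Neat1 and Snhg11 did not pass in urothelial-like cells. Malat1 took 116809 CPM in nuclei against 2825 and 2671 CPM in the male libraries and 17860, 17109 and 15305 CPM in the mixed ones (log2 difference 2.02, SE 1.17, adjusted p = 0.22). The spread within the cells followed the split between male and mixed libraries. Against the 3 mixed libraries alone, Malat1 differed by 1.36 (adjusted p = 3.5e-05) and Snhg11 by 1.67 (adjusted p = 1.6e-05). That fit called 7535 genes, against 4684 of 13314 in the test of all 5 libraries, so these calls came with many others. The share of all genes called in that fit is not given here. Snhg11 was at 745 CPM in nuclei and at 21.2, 18.3, 91.3, 83.1 and 84.4 CPM in cells (2.29 over all 5 libraries, SE 1.02, adjusted p = 0.13). Neat1 was at 1998 CPM in nuclei and 386 to 698 in cells (0.72, SE 0.41, adjusted p = 0.22). Every one of the 5 RNAs lay above all cell libraries in nuclei, as did 58.7% of genes tested.

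Within fibroblast-like cells Kcnq1ot1 alone passed. It was at 1471 CPM in 406 nuclei and at 42.8, 29.6, 100, 89.3 and 91.4 CPM in the 22-month male, 3-month male, first and second 12-month and 24-month cells. The log2 difference was 3.41 (SE 0.63, adjusted p = 0.011), where 24% of 12474 genes passed and 8.27% were higher in nuclei. Meg3 was at 1708 CPM in nuclei and at 709, 248, 766, 775 and 561 CPM in cells, a log2 difference of 0.53 (SE 0.64, adjusted p = 0.57). In this class, where cells express Meg3, the gap between nuclei and cells did not pass the test. Neat1 was at 2448 CPM in nuclei against 194 to 644 in cells (1.45, SE 0.74, adjusted p = 0.19) and at 579 to 644 in the mixed libraries, against which it differed by 1.16 (adjusted p = 0.00096). Malat1 took 141289 CPM in nuclei against 4255 to 36066 in cells (1.68, SE 1.19, adjusted p = 0.34), and 1.25 (adjusted p = 0.00041) against the mixed libraries. The fit against the mixed libraries called 4728 genes, against 2997 of 12474 in the test of all 5 libraries, so these calls came with many others. The share of all genes called in it is not given here. Snhg11 was at 104 CPM against 2.52 to 47.4 (1.00, SE 1.28, adjusted p = 0.60). All 5 again exceeded every cell library, as did 50% of all genes.

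In macrophage- or monocyte-like cells Kcnq1ot1 passed, where 12.6% of 7846 genes did and 3.63% were higher. All 5 RNAs lay above every cell library, as did 55.5% of genes. Of the 5, Meg3 and Snhg11 were too low in every cell library to pass the filter on low counts. Both were tested because of their level in nuclei and are not counted here. Kcnq1ot1 was at 784 CPM in 69 nuclei (56 UMIs) against 2.63 to 37.9 in cells (4.21, SE 0.76, adjusted p = 0.023). Meg3 rested on 13 UMIs in nuclei, 182 CPM with a Poisson interval of 96.9 to 311, against 2.70 to 18.3 CPM (1 to 22 UMIs) in cells (3.26, SE 0.84, adjusted p = 0.040). Meg3 was too low in every cell library to pass the filter on low counts and was tested because of its level in nuclei, so its call is not counted as a result. Both calls depended on single libraries: without the 22-month male library the adjusted p was 0.057 for Kcnq1ot1 and 0.052 for Meg3, and without the first 12-month library it was 0.061 and 0.071. Meg3 also lost its call without the 24-month library (adjusted p = 0.073), and with doublets kept its difference was 1.74 (adjusted p = 0.48). At clustering resolution 2 the adjusted p was 0.058 for each. Neat1 was at 2898 CPM against 330 to 635 (1.46, SE 0.52, adjusted p = 0.096), and Malat1 at 103443 against 2330 to 19580 (1.86, SE 1.03, adjusted p = 0.25). Snhg11 had 5 UMIs in these nuclei, 70.0 CPM, against 0.833 to 10.8 CPM in cells (2.82, SE 1.31, adjusted p = 0.18). With a minimum of 20 cells, blood-endothelial-like cells could be tested in 3 cell libraries, and Kcnq1ot1 passed there too (678 CPM against a mean of 39.5, log2 difference 3.93, SE 0.69, adjusted p = 0.015, where 6.32% of 5079 genes passed and 4% were higher). It was at 14.4 and 36.4 CPM in the 2 cell libraries with at least 50 such cells, and the 24-month library held only 23. No alternative was run for this fit.

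**Figure D1:**
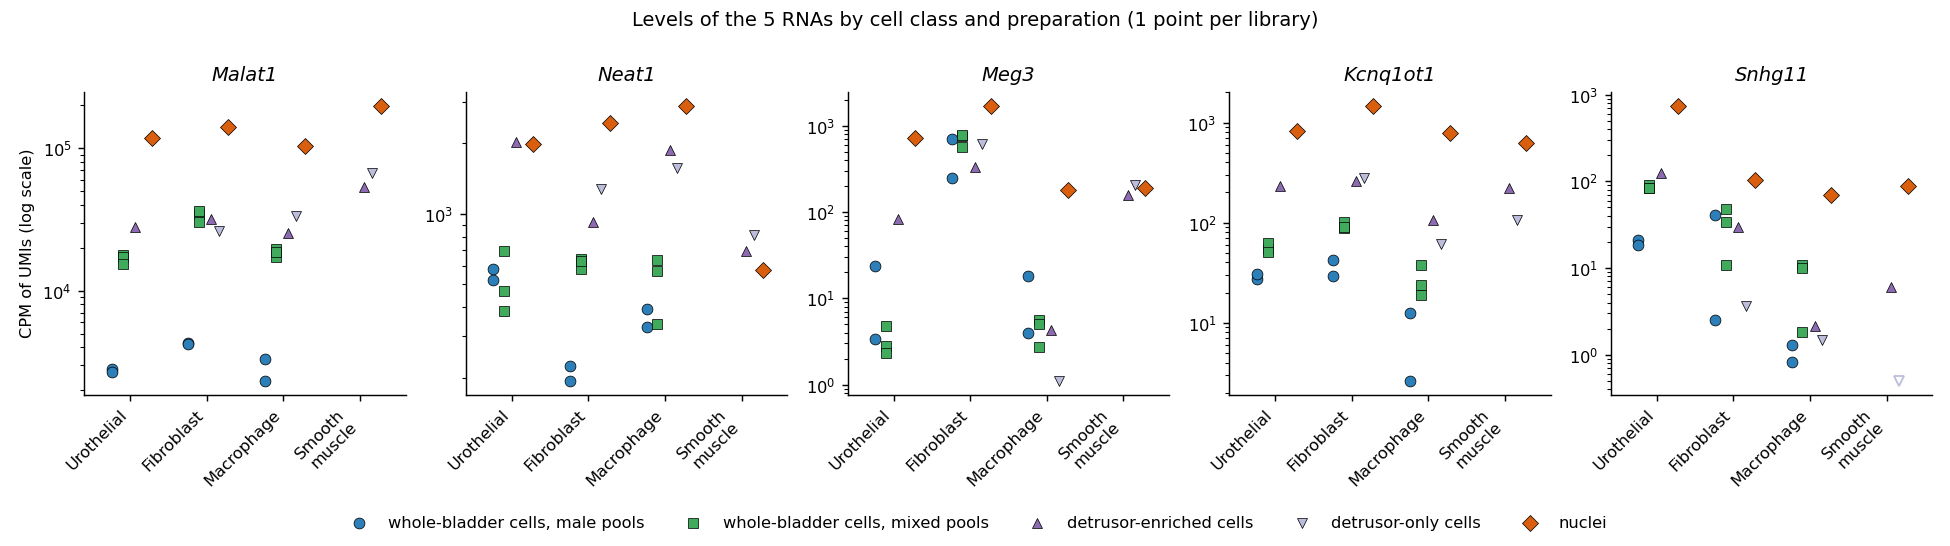
CPM of UMIs (log axis) of each RNA in urothelial-, fibroblast-, macrophage- and smooth-muscle-like cells, with 1 point per library of at least 50 cells and an open symbol where no UMI was counted. Of the classes shown, nuclei lie above all whole-bladder cells in the 3 that both hold. The ratio is largest for Meg3 in urothelial-like cells (720 CPM against at most 23.5). In smooth-muscle-like cells Neat1 and Meg3 in nuclei are near the detrusor cells.

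These fitted differences use TMM scaling, which left the median gene at -0.03 in urothelial-like, -0.32 in fibroblast-like, -0.28 in macrophage-like cells and -0.19 in whole libraries. With library size alone the median gene was higher in nuclei, by 1.11, 0.58, 0.99 and 0.77 in the same order. The share of called genes that were higher in nuclei then moved from 45.8% to 89.6%, from 34.4% to 84.1%, from 28.8% to 88.0% and from 49.4% to 91.3%. With RLE size factors it was 46.2% in fibroblast-like cells. All 5 RNAs were higher in nuclei under each scaling in each of these classes.

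Whether the gap between nuclei and cells differed between fibroblast-like and urothelial-like cells was tested as an interaction with the library as a block. Meg3 had an interaction of -5.43 (SE 1.23, adjusted p = 0.22), a much smaller gap in fibroblast-like cells, which did not pass with edgeR. With DESeq2 it was -5.32 (adjusted p = 0.00056), and without the 22-month male library -5.90 (adjusted p = 0.021). Interactions of the other 4 RNAs lay between -1.34 and 0.88, with adjusted p-values of 0.21 to 0.83. In that test 0.356% of 14057 genes passed, and none of the 5 RNAs did. The 50 calls were fragile, with 0 without the 3-month male library and 125 without the 22-month one, and 48.0% of them were higher, against 100% of the 5 calls with RLE size factors.

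The Meg3 level of urothelial-like nuclei was set beside the markers of other classes. It came mainly from 1 of 2 clusters, with 1045 CPM in 541 nuclei of the cluster with more uroplakins and 204 CPM in 699 nuclei of the other. The 12 fibroblast markers summed to 1276 CPM in the first and 1384 CPM in the second, against 24429 CPM in fibroblast-like nuclei. Smooth muscle markers summed to 3949 and 7960 CPM, against 50964 CPM in smooth-muscle-like nuclei, where Meg3 was at 192 CPM. Smooth muscle markers were present in every class of nuclei, at 11901 CPM in fibroblast-like and 13161 CPM in macrophage-like nuclei, against at most 3544 CPM in fibroblast-like and 219 CPM in macrophage-like whole-bladder cells. Their part in the nuclei results was not tested.

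Detrusor-enriched cells were counted with the same gene list as the nuclei and give a second comparison, 1 library against 1 and so without a test. Their 1517 urothelial-like cells, with a median of 590 UMIs, had Meg3 at 82.1 CPM, and the nuclei were 8.77 times higher. Of their 3 urothelial-like clusters, the one with the most uroplakins held Meg3 at 161 CPM in 186 cells, and a second held it at 5.24 CPM in 209 cells. The third, 1122 barcodes with smooth muscle and fibroblast markers at 8699 and 9584 CPM, held it at 86.2 CPM. Kcnq1ot1 was at 230 CPM in these urothelial-like cells (nuclei 3.55 times higher), Snhg11 at 124 CPM (6.01 times) and Malat1 at 28047 CPM (4.16 times). Neat1 was at 2022 CPM, and the nuclei were at 0.988 of it. Against cells with the same gene list, 4 of the 5 RNAs were higher in urothelial-like nuclei. The share of all genes that were higher there was not computed. Against whole-bladder cells, 58.7% of genes tested lay above every library in these nuclei. The Neat1 level of these cells differed between their clusters, at 435, 3233 and 983 CPM in those of 1122, 209 and 186 barcodes, against 2276 and 1823 CPM in the clusters of nuclei.

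Smooth-muscle-like cells could be compared in the same way in both detrusor preparations. Malat1 took 197846 CPM in nuclei, 3.72 and 2.97 times the level in detrusor-enriched and detrusor-only cells (53224 and 66695 CPM). Kcnq1ot1 was at 628 CPM in nuclei against 223 and 107 CPM. Summed over the class, Neat1 was at 575 CPM in nuclei and at 694 and 813 CPM in cells, so nuclei were below both. Meg3 was at 192 CPM in nuclei, between the 156 and 208 CPM of the cells. Snhg11 was at 88.0 CPM in nuclei, at 6.07 CPM (8 UMIs) in detrusor-enriched cells and without a UMI in 97 detrusor-only cells, a count of 0 that allows up to 3.62 CPM. The detrusor-only class held 199 to 298 cells under the other clustering settings, where Kcnq1ot1 was at 185 to 201 CPM, Snhg11 had 0 to 2 UMIs and Meg3 was at 147 to 157 CPM, so that nuclei then exceeded both preparations for Meg3. Within the smooth-muscle-like nuclei, Malat1 ranged from 32539 CPM in a cluster of 480 nuclei to 273522 CPM in one of 692. The low cluster had smooth muscle markers at 95607 CPM and Kcnq1ot1 at 137 CPM, and the high one 32000 and 828 CPM. Neat1 was at 263 CPM in the low cluster and 719 CPM in the high one, and Meg3 at 111 and 218 CPM. The cluster of 210 nuclei held them at 551 and 272 CPM. Detrusor-enriched clusters of 104 and 59 cells held Neat1 at 805 and 264 CPM. The order of nuclei and cells in Neat1 and Meg3 thus depended on the clusters compared.

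In fibroblast-like cells of the detrusor preparations, nuclei exceeded both for all 5 RNAs. The share of all genes was not computed for any class compared with detrusor cells. Against whole-bladder cells it was 50% in fibroblast-like nuclei. Malat1 was 4.43 and 5.42 times higher in nuclei than in detrusor-enriched and detrusor-only cells, Kcnq1ot1 5.70 and 5.31 times, Meg3 5.17 and 2.76 times, Neat1 2.64 and 1.91 times and Snhg11 3.46 and 28.4 times. Macrophage-like nuclei held Kcnq1ot1 7.36 and 12.7 times and Malat1 4.08 and 3.13 times the level of these cells. Kcnq1ot1 and Malat1 were higher in nuclei in every class compared with detrusor cells, which also included blood-endothelial-like and mesothelial-like cells. Neat1 was not: in blood-endothelial-like nuclei it was at 0.600 and 0.716 of the cells. The detrusor-enriched class compared there held 88 cells, and 225 to 311 under the other settings, with Neat1 at 1611 to 1719 CPM against 1817 CPM.

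Snhg11 varied within the urothelium. In 6 of the 7 libraries with urothelial-like clusters, Snhg11 was higher in the cluster with the most uroplakin RNA than in the cluster with the least, with 95% Poisson intervals (counting error only) apart. Uroplakins are the membrane plaque proteins of superficial urothelial cells, summed here over Upk1a, Upk1b, Upk2 and Upk3a. In the first 12-month library Snhg11 went from 20.9 CPM in the cluster with the lowest uroplakin sum (2612 CPM) to 223 CPM in the one with the highest (11180 CPM). The second 12-month library went from 12.7 to 159 CPM and the 24-month library from 14.5 to 298 CPM. In the male libraries the ends were 7.77 and 29.9 CPM at 22 months and 17.3 and 18.7 CPM at 3 months, so the low and high ends nearly met in the 3-month library. The lowest 3-month value rests on 3 UMIs (95% Poisson interval 3.56 to 50.5 CPM), so that library shows no order beyond counting error. Detrusor-enriched cells went from 26.7 to 205 CPM and nuclei, which had only 2 such clusters, from 595 to 840 CPM. The detrusor-enriched cluster at 26.7 CPM is the one of 1122 barcodes described above, with a median of 551 UMIs and urothelial markers at 8320 CPM, and the next was at 58.4 CPM.

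Meg3 was higher in the cluster with the most uroplakins than in the one with the least, with 95% Poisson intervals apart, in nuclei, in detrusor-enriched cells and in the 24-month library (41 UMIs, 9.20 to 17.4 CPM, against 13 UMIs, 1.97 to 6.33 CPM). In the other 4 libraries the intervals overlapped, and the low end was a single UMI in the second 12-month and 3-month libraries. In detrusor-enriched cells Kcnq1ot1, Malat1 and Neat1 changed direction with the cluster taken as the low end. The cluster with the most uroplakins held them at 210, 26319 and 983 CPM, above the cluster of 1122 barcodes (68.3, 8194 and 435 CPM) and below the cluster of 209 cells (271, 32308 and 3233 CPM). Malat1 and Neat1 were lower at the high end in the mixed whole-bladder libraries, with 21010, 22781 and 19091 CPM of Malat1 in the clusters with the fewest uroplakins (first and second 12-month, 24-month) and 16625, 13039 and 14121 CPM in those with the most. Meg3 was at or under 5 CPM in 17 of the 18 urothelial-like clusters of the mixed whole-bladder libraries. The exception, at 12.8 CPM, was the cluster with the most uroplakins of the 24-month library. These are levels of clusters made without the 5 RNAs, and they carry no test.

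**Figure D2:**
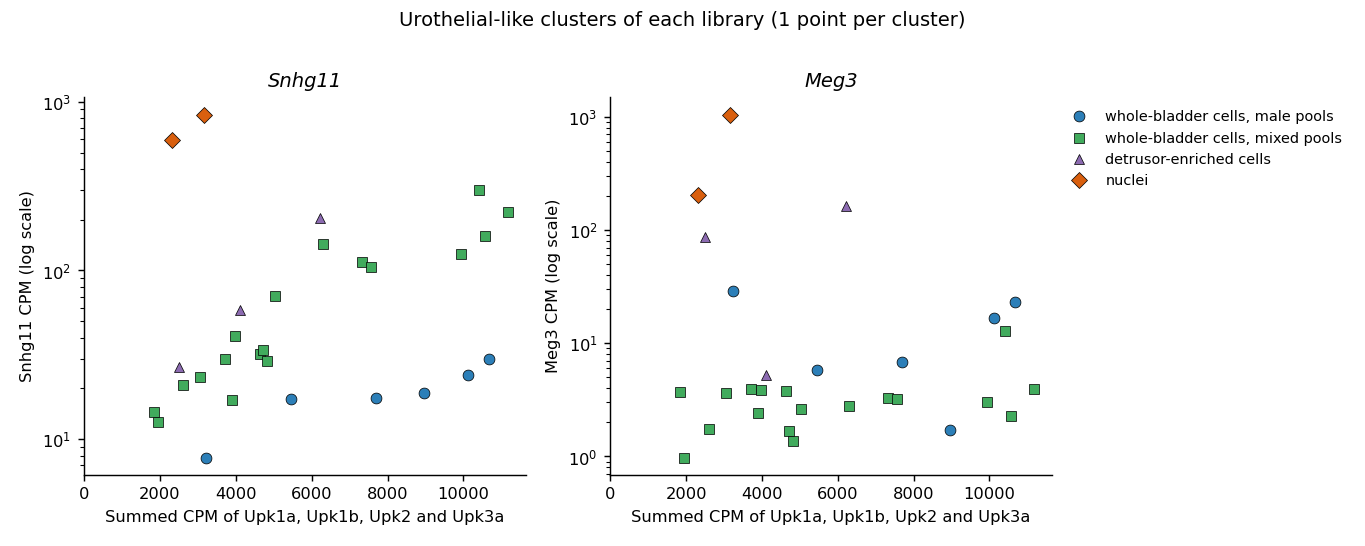
Snhg11 and Meg3 (CPM, log axis) against the summed CPM of 4 uroplakin genes, with 1 point per urothelial-like cluster of each library. Snhg11 climbs with the uroplakin sum among the 18 clusters of the mixed whole-bladder libraries, up to 298 CPM, while Meg3 stays at or under 5 CPM in 17 of them and reaches 1045 CPM in a cluster of nuclei.

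The sections show the same RNAs in place. Spots hold several cells, and spot clusters were called urothelial, fibroblast or smooth muscle regions when most genes of that marker list lay above the section's level. Meg3 was higher in urothelial than in smooth muscle regions of all 4 sections. It stood at 208 and 202 CPM in the urothelial regions of the first and second 14-month section and at 274 and 295 CPM in those of 22 months. In smooth muscle regions the values were 65.2, 53.5, 65.2 and 80.9 CPM, and in fibroblast regions 90.0, 57.4, 145 and 150 CPM. The log2 ratio of urothelial to smooth muscle regions was 1.88 ± 0.16 (SD, n = 4), and to fibroblast regions 1.23 ± 0.41.

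Snhg11 had the same order, at 105, 120, 189 and 148 CPM in urothelial regions against 20.9, 18.8, 34.2 and 31.9 CPM in smooth muscle regions (log2 ratio 2.42 ± 0.19, n = 4). Neat1 was also higher in urothelial regions, at 1156, 1053, 842 and 558 CPM against 378, 316, 385 and 320 CPM (1.32 ± 0.43). Malat1 ran the other way, at 185, 241, 111 and 409 CPM in urothelial and 728, 677, 430 and 435 CPM in smooth muscle regions (-1.38 ± 0.89). The second 22-month section was nearly level by these summed counts. As a mean over spots its Malat1 was higher in urothelial regions, at 635 against 525 CPM. Kcnq1ot1 was lower in urothelial regions as well, at 4.03, 6.77, 4.77 and 6.69 CPM against 10.6, 11.3, 11.2 and 7.88 CPM (-0.90 ± 0.52). Urothelial regions had the deepest spots, with medians of 30701 to 62244 UMIs against 11431 to 14591 in smooth muscle regions. They held fibroblast markers at 3848 to 4433 CPM, below the 9612 to 11984 CPM of smooth muscle regions. The fibroblast regions of the 14-month sections also held smooth muscle markers, at 40397 and 37202 CPM. Those of the 22-month sections held urothelial markers at 13344 and 13666 CPM, against 4176 and 3874 CPM at 14 months, beside their higher Meg3 and Snhg11, and the part of these counts was not tested. Spots of none of the 3 lists (41 to 140 per section) held Meg3 at 81.2 to 102 CPM and Snhg11 at 41.9 to 115 CPM, below the urothelial region of their section. Their Neat1 was above it in the first 22-month section (1116 CPM), their Malat1 below it in the second 14-month section (191 CPM), and their Kcnq1ot1 below it in 3 of 4. Regions were defined on these spots, so their differences are described without a test.

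**Figure D3:**
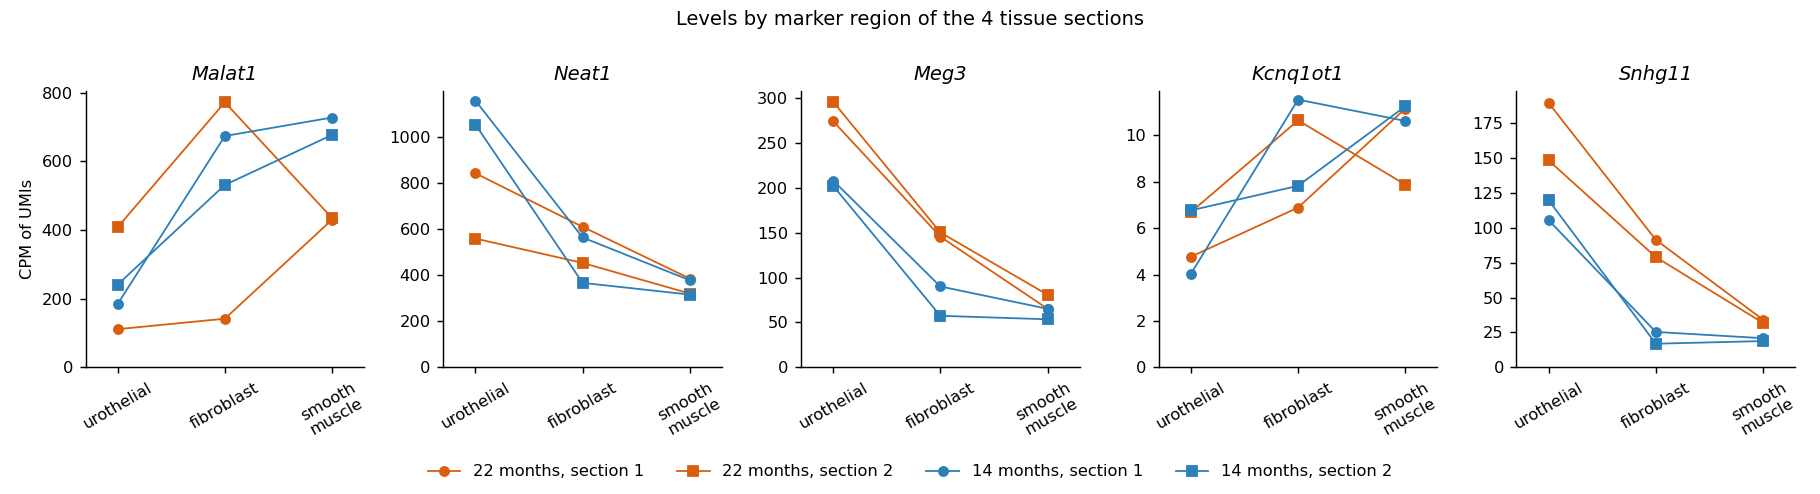
CPM of UMIs of each RNA in the urothelial, fibroblast and smooth muscle regions of the 4 sections, with 1 line per section. By summed counts, the urothelial region has the highest Meg3 (202 to 295 CPM), Snhg11 and Neat1 of these 3 regions in every section. By the same measure it has the lowest Malat1 and Kcnq1ot1, although the 95% Poisson intervals of Kcnq1ot1 overlap those of fibroblast regions. As a mean over spots it is not the lowest for Malat1 in the second 22-month section. Nor is it for Kcnq1ot1 in the second 14-month section (9.07 against 8.80 CPM in the fibroblast region).

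Sections of 22 and 14 months were compared over all spots. Snhg11 was at 111 and 98.2 CPM at 22 months and 58.2 and 65.2 CPM at 14 months, and Meg3 at 161 and 199 CPM against 129 and 121 CPM. The ages did not overlap for these RNAs, nor for 51.2% of all genes. By edgeR the log2 differences were 0.83 for Snhg11 (SE 0.09, adjusted p = 0.060) and 0.59 for Meg3 (SE 0.14, adjusted p = 0.17), and 0% of 14995 genes passed, although 2488 had an unadjusted p under 0.05. DESeq2 made 426 calls, among them Snhg11 (0.82, adjusted p = 1.1e-07) and Meg3 (0.59, adjusted p = 0.017). Without the first 22-month section edgeR called 300 genes, among them Snhg11 (0.77, adjusted p = 0.029) and Meg3 (0.77, adjusted p = 0.031). Neat1 was at 672 and 466 CPM at 22 months against 741 and 680 (-0.26, adjusted p = 0.47), and Malat1 and Kcnq1ot1 overlapped between the ages. Urothelial regions, in which Snhg11 and Meg3 were highest, made up 195 of 1317 and 296 of 1038 spots at 22 months and 148 of 937 and 204 of 1123 at 14 months, and their part in the difference was not tested. The ages also did not overlap in the ribosomal share of UMIs, 20.04% and 22.65% at 22 months against 18.0% and 18.3%, or in dissociation response genes, 1082 and 775 CPM against 4616 and 2200 CPM, and the part of these was not tested either.

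Among whole-bladder cells Meg3 was high in fibroblast-like cells and in rarer classes. Fibroblast-like cells held it at 612 ± 221 CPM (SD, n = 5), against 7.37 ± 9.07 CPM in urothelial-like and 7.11 ± 6.36 CPM in macrophage-like cells. The ranges did not overlap, and the share of all genes without overlap between these classes was not computed. Pericyte-like cells held 438 CPM in the 22-month male library and mesothelial-like cells 1000 CPM, beside 709 CPM in the fibroblast-like cells and 481 CPM in 37 Schwann-like cells of that library. Mesothelial-like cells of the 24-month library (29 cells) were at 264 CPM, below its fibroblast-like cells at 561 CPM. The 97 mesothelial-like nuclei held Meg3 at 578 CPM, between the 264 and 1000 CPM of these cells. In the detrusor-only library, mesothelial-like, pericyte-like and smooth-muscle-like cells were at 327, 232 and 208 CPM, under the fibroblast-like cells at 620 CPM. Lymphatic-endothelial-like and macrophage-like cells were at 4.40 and 1.10 CPM. Schwann-like cells of the detrusor preparations were at 109 and 270 CPM.

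Fibroblast-like cells were divided into types by markers: a Car3 and Cxcl14 type, a Pi16 and Mfap5 type, and an Inmt, Sult1e1 and Penk type. Meg3 was lowest in the Car3 and Cxcl14 type in every library that had it. It stood there at 474, 31.9, 303, 278 and 394 CPM in the 22-month male, 3-month male, first and second 12-month and 24-month libraries. In the Pi16 and Mfap5 type the same libraries held 1039, 750, 1205, 994 and 1429 CPM. The types did not overlap, and the log2 ratio was 2.28 ± 1.32 (SD, n = 5). The share of all genes that do not overlap between these marker-defined types was not computed. The Inmt, Sult1e1 and Penk type was found in 3 of these libraries, at 1785 CPM (22 months), 879 CPM (3 months) and 929 CPM (24 months, 52 cells), a log2 ratio to the Car3 and Cxcl14 type of 2.64 ± 1.88 (n = 3). Fibroblast markers were also lower in the Car3 and Cxcl14 than in the Pi16 and Mfap5 type of each whole-bladder library (65738 against 110253 CPM at 22 months). Smooth muscle markers were higher there (4722 against 363 CPM at 22 months), except in the second 12-month library (767 against 1407 CPM). The part of these was not tested.

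The 3-month male library was the lowest whole-bladder library in each of the 3 types. It set the spread of the Meg3 ratios and raised their means. The Pi16 and Mfap5 type was there 23.5 times the Car3 and Cxcl14 type, against 2.19 to 3.98 times in the other libraries. For the Inmt, Sult1e1 and Penk type it was 27.5 times, against 3.77 and 2.36 times at 22 and 24 months. The Car3 and Cxcl14 type of the 3-month library rested on 134 Meg3 UMIs in 2442 cells, whereas the other male library, with the same gene list and barcode length, held 474 CPM. The order of the other 2 types varied, with Inmt, Sult1e1 and Penk above Pi16 and Mfap5 in both male libraries and below it in the 24-month library. Detrusor-enriched cells held 203, 461 and 685 CPM in the Car3 and Cxcl14, the Pi16 and Mfap5 and the Inmt, Sult1e1 and Penk type. Detrusor-only cells held 727 and 783 CPM in the last 2 types and had no named Car3 and Cxcl14 type. Their Pi16 and Mfap5 type of 894 cells was not named with doublets kept, and at Leiden resolution 2 it held 232 cells at 1051 CPM. In nuclei only the Pi16 and Mfap5 type was named, with 391 nuclei and 1753 CPM. That name was lost at resolution 2, where 371 nuclei had no type (1782 CPM) and 30 were of the Car3 and Cxcl14 type (703 CPM).

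Kcnq1ot1, like Meg3, was lowest in the Car3 and Cxcl14 type of the whole-bladder libraries, with a smaller ratio. Its order of the other 2 types was not that of Meg3 in the 3-month and 24-month libraries. The Pi16 and Mfap5 type exceeded the Car3 and Cxcl14 type in 5 of 5 libraries (log2 ratio 0.88 ± 0.31). Snhg11 went the other way. It was at 53.9, 62.0, 28.1 and 52.9 CPM in the Car3 and Cxcl14 type of the 3-month, first and second 12-month and 24-month libraries. In their Pi16 and Mfap5 type it stood at 7.28, 7.56, 3.10 and 25.2 CPM. In the 22-month male library it was at 3.40 CPM, and its Pi16 and Mfap5 type held 1 UMI. Malat1 was slightly lower in the Pi16 and Mfap5 type of all 5 libraries (log2 ratio -0.25 ± 0.08), and Neat1 showed no common direction (-0.13 ± 0.53).

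**Figure D4:**
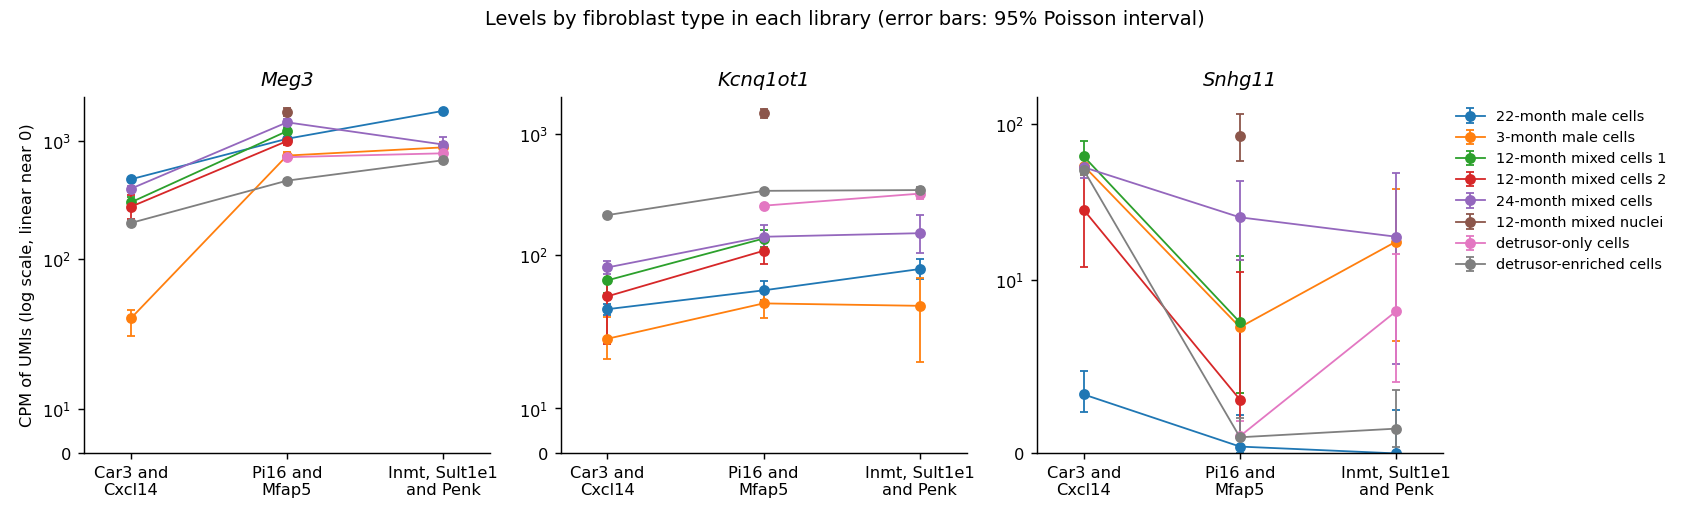
CPM of UMIs (log axis, linear near 0) of Meg3, Kcnq1ot1 and Snhg11 in 3 fibroblast types, with 1 line per library and 95% Poisson intervals. Meg3 is lowest in the Car3 and Cxcl14 type of each library, down to 31.9 CPM in the 3-month library, and Snhg11 is highest there, in each case among the libraries that have this type.

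Age was compared in whole-bladder cells, 22 and 24 months against 3, 12 and 12 months, with the sex mix as a term. EdgeR called 0% of 12296 genes in urothelial-like cells (369 had an unadjusted p under 0.05, and DESeq2 made 4 calls) and 0% of 11460 in fibroblast-like cells (297 and 2). None of the 5 RNAs passed. Meg3 in urothelial-like cells had the lowest p-value of the 5, a log2 difference of 1.58 (SE 0.43, adjusted p = 1.00), and 2.89 without the 24-month library. Old and young did not overlap for it, as for 5.82% of genes. It rested on the 22-month male library, at 23.5 CPM, whose urothelial-like cells also held fibroblast markers at 4732 CPM, against 707 to 2471 CPM in the other 4 libraries. The part of these fibroblast counts was not tested. In fibroblast-like cells Meg3 differed by 0.42 (SE 0.51, adjusted p = 1.00), by 1.60 without the 24-month library and by -0.51 without the 22-month or the 3-month library. Snhg11 differed there by -0.88 (SE 1.59, adjusted p = 1.00), by -3.93 without the 24-month library and by 0.92 and 0.93 without the 22-month and the 3-month library. With the sex term, the fits without the 24-month library set the 22-month against the 3-month male library alone. Those without the 22-month or the 3-month library both set the 24-month against the 12-month libraries alone. They make the same comparison, so their like values are not separate results. Only the differences of these fits are given.

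Bulk libraries compare dissociated bladders with intact tissue, and 4 of the 5 RNAs changed. Malat1 rose and Neat1, Meg3 and Snhg11 fell on dissociation, where 59.3% of 16525 genes passed, 28% higher and 31.3% lower. Malat1 was at 290, 555 and 323 CPM of reads in intact tissue and 678, 910 and 591 CPM in dissociated bladders. Every dissociated library lay above every intact one (log2 difference 1.02, SE 0.26, adjusted p = 0.011). Neat1 was at 1170, 1101 and 1272 CPM in intact tissue and 439, 511 and 553 CPM after dissociation, and fell by 1.12 on the log2 scale (SE 0.12, adjusted p = 0.00016). The 2 RNAs are neighbours on chromosome 19, and they moved in opposite directions.

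Snhg11 fell by 1.18 (SE 0.10, adjusted p = 4.8e-05), from 191, 213 and 199 CPM to 81.5, 75.1 and 89.3 CPM. Meg3 fell by 0.56 (SE 0.10, adjusted p = 0.0022), from 208, 216 and 223 CPM to 153, 129 and 121 CPM. Kcnq1ot1 was at 7.79, 11.8 and 8.37 CPM in intact tissue and 7.57, 6.89 and 7.76 CPM in dissociated bladders, a log2 difference of -0.22 (SE 0.18, adjusted p = 0.32). No value of the preparations overlapped for any of the 5, nor for 68% of all genes. Cell loss and RNA loss per cell cannot be told apart in these libraries. With library size alone the median gene was at -0.15 in place of -0.03, and the directions of all 5 RNAs were the same.

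**Figure D5:**
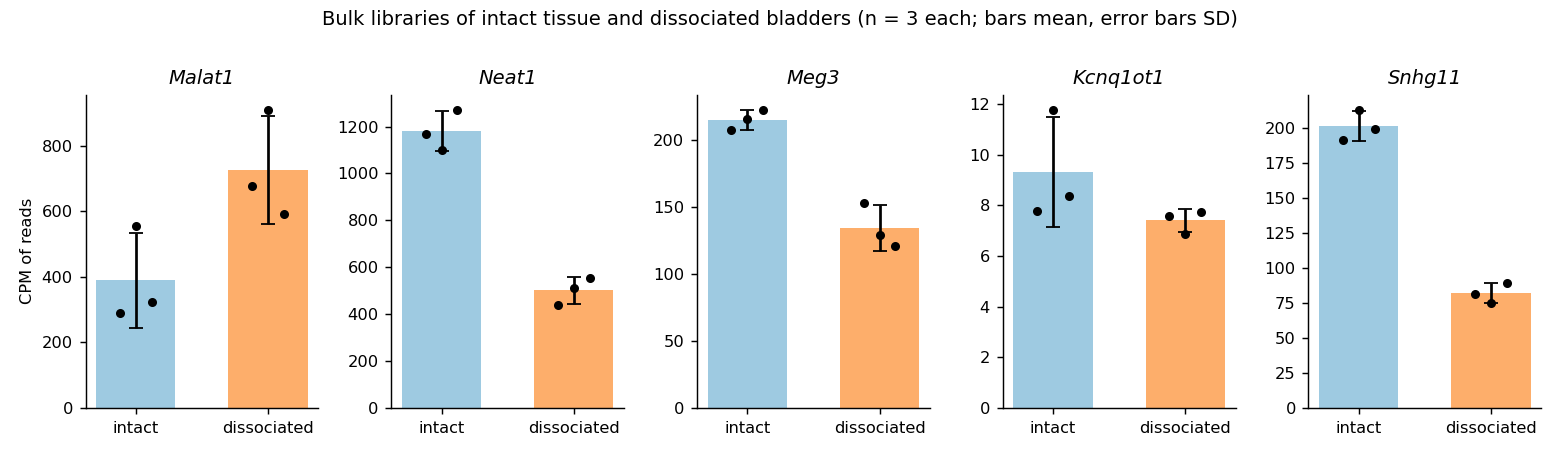
CPM of reads of each RNA in the 3 intact and 3 dissociated bulk libraries, with bars for the mean, error bars for the SD and points for libraries. Malat1 is higher in dissociated bladders (591 to 910 against 290 to 555 CPM), and Neat1, Meg3 and Snhg11 are lower.

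Genes of the same families and bodies were counted in these tests. Over all genes, 28% were higher and 31.3% lower in dissociated bladders, 35.2% were called in urothelial-like nuclei (16.1% higher) and 24% in fibroblast-like nuclei (8.27% higher). The median over all genes was -0.03, -0.03 and -0.32 in the same order. Of 8 other nuclear or imprinted long non-coding RNAs tested in bulk, 1 was higher and 3 were lower in dissociated bladders, 4 of 8 called against 59.3% of all genes (median -0.15 against -0.03). Ftx, an RNA of the X inactivation centre, fell by 0.59 (SE 0.11, adjusted p = 0.0021). In urothelial-like nuclei 4 of 6 were higher and none lower: Gm26917 by 2.64 (SE 0.62, adjusted p = 0.018), Ftx by 3.01 (SE 0.31, adjusted p = 0.0016), Airn, the antisense RNA of Igf2r, by 1.46 (SE 0.36, adjusted p = 0.021), and Mirg. Mirg, a further RNA of the Meg3 region, was at 15.3 CPM in these nuclei and at a mean of 0.051 CPM in cells, and is named after its values were seen. It was near 0 in cells and so was tested because of its level in nuclei, and the other 3 calls are among 5 genes, where 16.1% of all genes were higher. In fibroblast-like nuclei 3 of 6 were higher, against 8.27% of all genes, and none lower (median 2.05 against -0.32), Mirg by 2.75 (SE 0.81, adjusted p = 0.044), Ftx by 2.57 and Jpx by 2.21.

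Other small nucleolar RNA hosts and spliced long non-coding RNAs were a further list. In urothelial-like nuclei 0 of 6 passed in the test in which 35.2% of all genes did, and in fibroblast-like nuclei 1 of 7 fell. In bulk 2 of 8 rose and 1 fell, where 59.3% of all genes were called, with Snhg12 at 1.13 (SE 0.09, adjusted p = 5.3e-05) and Snhg20 at -1.68 (SE 0.13, adjusted p = 3.0e-05).

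Among 11 paraspeckle protein genes, 3 rose and 2 fell in dissociated bladders (median 0.20 against -0.03), 5 of 11 called against 59.3% of all genes. Sfpq, a core protein bound by Neat1, rose by 1.65 (SE 0.13, adjusted p = 3.3e-05) while Neat1 fell, and Tardbp fell by 0.46. In urothelial-like nuclei 4 rose and 1 fell (median 0.40 against -0.03, 35.2% of all genes called), with Tardbp at 1.27, Sfpq at 1.26 and Hnrnpk at -1.47. In fibroblast-like nuclei Tardbp rose by 1.55 and Hnrnpk fell by 1.98, and the other 9 did not pass. Of 13 nuclear speckle protein genes, 5 rose and 2 fell in dissociated bladders (median 0.11 against -0.03, 59.3% of all genes called), Pnisr at -1.25 and Srsf2 at 0.91. In urothelial-like nuclei 5 rose, against 16.1% of all genes, and none fell (median 0.28 against -0.03), led by Pnisr at 2.25, Srrm2 at 1.58 and Acin1 at 1.51, and in fibroblast-like nuclei 3 rose.

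The genes that Kcnq1ot1 neighbours were tested beside it. In bulk, 2 of 9 rose, against 28% of all genes, and 5 fell, against 31.3% (median -0.28 against -0.03), among them Cdkn1c, a cell cycle inhibitor, at 0.60 and Nap1l4, a histone chaperone, at -0.47. In fibroblast-like nuclei, where 24% of all genes were called, 0 of 7 rose and 2 fell, Cd81 by 2.82 and Cdkn1c by 2.12, while Kcnq1ot1 was 3.41 higher. In urothelial-like nuclei, where 35.2% were, 0 of 9 rose and 2 fell, among them Slc22a18 by 1.77. Of the Dlk1-Dio3 neighbours of Meg3, 1 of 4 rose in bulk, against 28% of all genes, Dlk1 at 0.93. In urothelial-like nuclei 1 of 3 tested was higher, against 16.1% of all genes, and 0 lower (median -5.33). In fibroblast-like nuclei it was 1 of 2, against 8.27%, and 0 lower (median -0.63). These counts are too small to read as a result about the neighbours. Dissociation response genes (immediate-early and stress genes) were higher in dissociated bladders in 18 of 18 cases (median 5.01), against 28% of all genes. In urothelial-like and in fibroblast-like nuclei 15 of 18 were lower than in cells (medians -5.23 and -5.37). There 35.2% and 24% of all genes were called in either direction. That list was written with earlier results of these data known, as were all others.

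For each RNA, the genes with the most similar pattern were taken over 54 sums of a class in a library and 9613 genes, by Pearson correlation of log2(CPM + 1). The sums share libraries and depth, so the correlations are descriptions across these 54 points. Malat1 was closest to Slc24a5 (r = 0.917), Gm26518 (0.909) and Nktr (0.900). Neat1 was closest to Gnaq (0.816), Fcho2 (0.813) and Vps13c (0.805). Kcnq1ot1 was closest to Golga3 (0.918), R3hdm1 (0.913) and Tnrc6a (0.910). Meg3 was closest to Thbs3 (0.880), which encodes a thrombospondin, Arhgef25 (0.875) and Vasn (0.875). Snhg11 was closest to Evpl (0.788) and Dsp (0.762), which encode envoplakin and desmoplakin of epithelial cell junctions and envelopes, and to Myof (0.746).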

How the data were processed

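Droplet and section tables hold UMI counts per gene and barcode, and the bulk table holds read counts per gene, both deposited by the authors as whole numbers. Per the submitters' processing notes, bcl2fastq, Cell Ranger, Space Ranger, Subread and featureCounts were used with mm10, and versions are not given in the sources used here. Barcodes under 500 UMIs or over 20% mitochondrial UMIs were dropped, simulated-doublet neighbours were removed, and cells were clustered on 2000 variable genes without the 5 RNAs (30 components, 15 neighbours, Leiden resolution 1, leidenalg 0.10.2, Python 3.11.15). Classes were named from marker lists. The details of naming, and the rule for section regions (75% of list genes above the section's level), were settled after clusters were seen. Counts were summed per library and class of at least 50 cells and tested with edgeR 4.0.16 (quasi-likelihood, TMM, two-sided, Benjamini-Hochberg at 0.05, R 4.3.3), with DESeq2 1.42.0 as an alternative. With 1 nuclei library, its variation is taken to equal that between cell libraries. The fits were also run on simulated counts, in which nuclei were given the variation of the cell libraries. That run therefore cannot check this assumption. Bulk totals were 23083752 to 68760791 reads. Named genes are the 5 RNAs, their 3 most similar genes, and up to 3 called genes per list with a mean of at least 10 CPM. Members and lists were chosen with earlier results of these data known.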

Additional observations from a re-analysis of the deposited data

Results flagged for a closer look

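The 22-month male library stood apart from the other whole-bladder libraries in Meg3 in 3 sets of values. Over the whole library it held 470 CPM, against 48.4 to 125 CPM in the other 4. This library held 5808 fibroblast-like cells of 8420, and its fibroblast markers summed to 52842 CPM, against 3126 to 31345 CPM. In its urothelial-like cells Meg3 was at 23.5 CPM, against 2.33 to 4.77 CPM, and in its macrophage-like cells at 18.3 CPM, against 2.70 to 5.55 CPM. Fibroblast markers were at 4732 CPM in these urothelial-like cells, against 707 to 2471 CPM, and at 4134 CPM in these macrophage-like cells, against 673 to 1647 CPM. Their part in the Meg3 values was not tested. In each set its gap to the next library was past Dixon's 95% limit for 5 values. In all, 40 sets of 4 or 5 libraries were examined and 3 had a library past the limit, where chance gives about 1 in 20, or 2.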

How the results depend on the processing

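Of 581 alternative values of the 5 RNAs, 507 were counted as unchanged, including every bulk one. For a tested difference, unchanged means the same direction and side of the threshold. The 581 also held class levels and Meg3 ratios between fibroblast types, which have no test and so no threshold. Those were judged on size alone, and 8 were counted as moved. The cause of the changes below was not tested. Counts of calls below are given without the share of the genes tested in each alternative, so a call there may be 1 of very many. Same-numbered bulk samples correlated at 0.19, 0.34 and -0.07 and differently numbered ones at -0.42 to 0.28, which does not settle whether they were paired. With the replicate as a block edgeR called 10006 genes, with Malat1 at 1.05, and changed no call of the 5. Against mixed-sex libraries only, edgeR called 7535 genes in urothelial-like cells, 4728 in fibroblast-like cells, 8534 in whole libraries and 664 in the interaction. Malat1 was then 1.36, 1.25, 1.82 and -0.44 in that order and 1.57 in macrophage-like cells, Snhg11 was 1.67 (urothelial) and 1.15 (whole), Neat1 1.16 (fibroblast) and 1.58 (macrophage), and Meg3 2.07 (whole), all called. With 12-month libraries only, 8475 genes were called in whole libraries, and Malat1 was 1.32 (urothelial), 1.20 (fibroblast) and 1.69 (whole), Snhg11 1.68 (urothelial) and 1.02 (whole), Neat1 1.19 (fibroblast) and Meg3 2.17 (whole). With library size alone, Malat1 was 3.39 (urothelial) and 3.58 (whole), Neat1 1.91 (urothelial), 2.44 (fibroblast), 1.77 (whole) and 2.74 (macrophage), and Snhg11 3.64 (urothelial), all called. In sections that scaling called 38 genes, with Snhg11 at 0.76 and Kcnq1ot1 at -0.016. DESeq2 called 5174 genes in whole libraries, 539 in macrophage-like cells, 212 in the interaction (Meg3 -5.32), 426 in sections (Meg3 0.59, Snhg11 0.82), and 4 and 2 for age in urothelial- and fibroblast-like cells. RLE size factors gave 5 interaction calls. Without a filter on low counts there were 81 interaction calls, 287 in sections (Snhg11 0.83), and 150 and 7 for age (Meg3 1.57 in urothelial-like cells). In macrophage-like cells, resolution 2 gave 22 calls, Meg3 3.46 and Kcnq1ot1 4.16, and keeping doublets gave Meg3 1.74. Without the sex term, age gave Snhg11 -0.34 in urothelial-like and Meg3 -0.068 and Kcnq1ot1 -0.21 in fibroblast-like cells.

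Leaving out 1 library at a time gave these ranges. Whole libraries had 791 to 3437 calls, Meg3 0.91 to 1.99 and Kcnq1ot1 2.73 to 3.13. Macrophage-like cells had 20 to 1219 calls, Meg3 3.12 to 4.18 and Kcnq1ot1 3.98 to 4.61. The interaction had 0 to 125 calls and Meg3 -5.90 to -5.13. Sections had 0 to 300 calls, Malat1 -0.83 to 0.32, Meg3 0.39 to 0.77, Kcnq1ot1 -0.022 to 0.12 and Snhg11 0.77 to 0.89. Age in urothelial-like cells had 1 to 89 calls, Malat1 -0.21 to 0.18, Neat1 -0.23 to 0.27, Meg3 0.85 to 2.89 and Snhg11 -0.066 to 0.31. Age in fibroblast-like cells had 0 to 59 calls, Malat1 -0.27 to 0.090, Meg3 -0.51 to 1.60, Kcnq1ot1 -0.11 to 0.62 and Snhg11 -3.93 to 0.93. Leaving out the 3-, 22- and 24-month libraries in the age comparison was chosen after seeing the data. The fits without the 3-month and without the 22-month library make the same comparison. The 1000-UMI minimum was not run for macrophage-like nuclei, of which too few were left. Meg3 in urothelial-like nuclei was 433 CPM as a mean over nuclei, against 720 CPM from summed counts.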
